A study of Mus musculus with 8 samples.

Results

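The comparison described here is that of UO126, an inhibitor of the kinases MEK1 and MEK2, with its vehicle DMSO in mouse basal cell carcinoma cells carrying an inducible c-FOS gene. It rests on 4 of the 8 libraries of the series, 2 with UO126 and 2 with DMSO, and covers every gene of the deposited count table whose symbol had not been turned into a date, 24883 of 24909 entries. Of these, 12879 had enough counts to be tested. The other 4 libraries, 2 with the EGFR family inhibitor afatinib and 2 from cells with an empty vector, entered the same model and are given beside the results they bear on.

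All groups came from ASZ001, a cell line from a mouse basal cell carcinoma, and all received doxycycline for 24 h. The DMSO, UO126 and afatinib groups carried the c-FOS vector and were then exposed for 6 h to DMSO, to 10 µM UO126 or to 5 µM afatinib. The empty-vector label names doxycycline alone and no vehicle. The vector was driven by doxycycline in each of these 3 groups, so the comparison shows MEK inhibition with c-FOS already induced. It holds no UO126 group without c-FOS. The sources do not say whether the vector carries mouse or human c-FOS, nor whether a group's 2 libraries are separate cultures. A p-value here therefore sets the difference between groups against the spread between such libraries, shared over the 4 groups. That spread may be technical.

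Growth factor receptors such as EGFR switch on RAS, which activates RAF, MEK and then ERK in turn. ERK phosphorylates transcription factors of the ETS and AP-1 families, including c-FOS, and so raises immediate-early genes, cyclin D1 and a set of its own inhibitors, the DUSP phosphatases and the Sprouty and Spred proteins. In keratinocytes and their tumours the pathway drives division, and the EGFR ligands it induces feed back on the receptor.

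Total counts lay between 17901974 and 23126048 per library. The ribosomal RNA precursor Rn45s took 3.46% and 2.20% of the DMSO libraries and 1.63% and 3.56% of the UO126 libraries. The 2 UO126 libraries differed more from each other than any other pair, with a chi-square statistic per degree of freedom of 25.1 against 4.85 to 9.17 in the other groups. Without Rn45s it was 12.9 against 3.59 to 4.82. Still, no library stood far from its group in the principal components. The basal keratinocyte markers were present in every library: their summed level was 27100 CPM (counts scaled to a common library size) in both DMSO libraries and 26500 and 28100 with UO126, and 1 of 12 was higher and 5 lower (3 lower without DMSO replicate 1, 2 higher without DMSO replicate 2). Markers of fibroblasts (5 of 10 tested, 1 higher), leukocytes (2 of 8 tested, 1 higher), melanocytes (2 of 7 tested, none called) and endothelium (3 of 7 tested, 1 lower) summed to 8.63 and 9.52, 6.88 and 6.31, 47.6 and 44.2, and 168 and 153 CPM with DMSO, and to 9.94 and 11.5, 7.99 and 9.62, 65.2 and 53.1, and 138 and 143 CPM with UO126. The 2 higher calls among these, Pdgfra and Csf1r, were both lost without DMSO replicate 2. That of Pdgfra (adjusted p = 0.048) was also lost in the DESeq2 Wald test (0.22), with the replicate block (0.063), with the 4 libraries alone (0.082) and without any other single library but UO126 replicate 1. Over all genes tested 13.9% were called higher and 14.7% lower, so single calls in such short lists say little about a cell type. The part of these markers in the results was not tested. Kdr, Tie1, Lum, Thy1, Tyrobp and Tyr were among the markers at 0 in all 4 libraries, but some other members of these lists had counts, as the sums show. Zeros in some markers do not show that a cell type was absent. In bulk RNA, fewer cells of a type and less RNA per cell cannot be told apart.

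UO126 changed many genes, most of them by less than 2-fold. Of 12879 genes, 1788 (13.9%) were higher and 1893 (14.7%) were lower than with DMSO (adjusted p under 0.05 by the quasi-likelihood test of edgeR). Counts of called list members in this comparison are to be read beside these shares. The libraries of the 2 groups did not overlap in any of the 3681 called genes, so such separation, given below for single genes, adds nothing to their calls. The median size of a called change was 0.39 on the log2 scale, and the median over all genes tested was 0. A change of at least 2-fold was seen for 202 higher and 146 lower genes, and one of at least 4-fold for 17 and 26. Leaving out DMSO replicate 2 lowered the counts to 913 and 968.

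**Figure D1:**
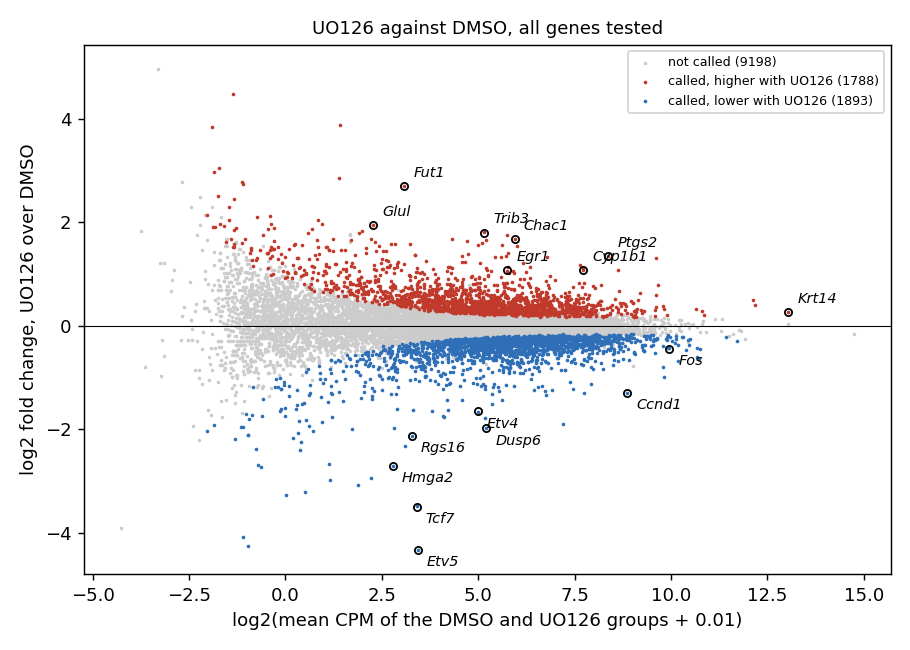
Log2 fold change of UO126 over DMSO (vertical axis) against mean level (horizontal axis, log2 CPM with 0.01 added) for the 12879 genes tested, with called genes in red (1788 higher) and blue (1893 lower) and named genes circled. The ETS factor gene Etv5, at -4.33, is the lowest of the circled genes, and Fut1, at 2.70, the highest.

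Transcription factors and a chromatin protein were among the 15 largest falls in genes with a mean of at least 5 CPM in the higher group, a floor that leaves out rarer genes with larger changes. Etv5, an ETS factor induced by ERK, was at 20.8 and 20.5 CPM with DMSO and at 1.03 and 1.04 CPM with UO126, a log2 fold change of -4.33 ± 0.15 (SE, adjusted p = 2.7e-09). Tcf7, a partner of beta-catenin, was at 19.9 and 18.9 CPM against 1.59 and 1.82 CPM (-3.49 ± 0.20, adjusted p = 1.1e-07). Hmga2, a chromatin protein of embryonic and tumour tissue, was at 11.0 and 12.8 CPM against 1.88 and 1.75 CPM (-2.71 ± 0.18, adjusted p = 2.3e-07). The groups stood well apart for all 3 genes, with both UO126 libraries below every DMSO library. The other falls of this rank were Htr5b, a serotonin receptor (-3.08, between Tcf7 and Hmga2), the serpin Serpinb10 (-2.32), Rgs16, a regulator of G-protein signalling (-2.13), the R-spondin receptor Lgr6 (-2.00), and Dusp6 (-1.98). The remaining falls were of Klhdc8a (-1.97), the kinase Prkg2 (-1.89), the potassium channel Kcnn4 (-1.78), the sphingosine kinase Sphk1 (-1.76), the adaptor Dok1 (-1.74), Etv4 (-1.65) and the small Maf factor Maff (-1.65).

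Among the 15 largest rises above the same floor, Fut1, a fucosyltransferase, was at 2.34 and 2.13 CPM with DMSO and at 14.6 and 14.9 CPM with UO126 (2.70 ± 0.16, adjusted p = 1.4e-07). Glul, glutamine synthetase, was at 2.31 and 1.68 CPM against 7.12 and 8.30 CPM (1.94 ± 0.17, adjusted p = 2.8e-06), and at 77.9 and 76.6 CPM in the empty-vector cells. Il17rb (1.84), a receptor of interleukin 17 family cytokines, Nrep (1.75), Gfra2 (1.68), a co-receptor of RET, Sox6 (1.66), Ppargc1a (1.67), the coactivator of mitochondrial biogenesis, Fam180a (1.63), Peg3 (1.62), Igfbp5 (1.58), which binds insulin-like growth factors, and Mslnl (1.58) were also among these 15, with the stress genes Trib3, Chac1 and Ddit4 described below. Hspa1a, a heat shock protein, was at 14.8 and 6.76 CPM with UO126 and 3.84 and 3.44 CPM with DMSO (1.58, adjusted p = 0.027), and its call ended without either DMSO replicate (0.11 and 0.16), without either empty-vector replicate (0.053 and 0.06) and with only the 4 libraries compared (0.11).

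Because c-FOS is part of the AP-1 dimer, promoters from RefSeq's GRCm38.p6 annotation (250 bases before to 50 after each start) were searched for the AP-1 site TGANTCA on both strands. The site stood in 7.81% of all promoters (2565 of 32851) and in 5.40% of those of genes tested, against 11.2% (22 of 196) of the promoters of genes called at least 2-fold higher and 14.8% (21 of 142) of those at least 2-fold lower. Of the 30 largest rises and falls, 24 had a promoter entry, and the site was found for Il17rb, Fam180a, Serpinb10 and Sphk1. A match describes these letters only and is no measure of binding. Stretches of 3 of these promoters follow, the first of a gene that fell and the next of genes that rose, and the capitals mark the site: Serpinb10 at chr1:107528904-107529000 on the plus strand, Il17rb at chr14:30008949-30009045 and Fam180a at chr6:35326142-35326234, both on the minus strand.
Serpinb10: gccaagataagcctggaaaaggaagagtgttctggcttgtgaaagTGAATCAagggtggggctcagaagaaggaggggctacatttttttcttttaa
Il17rb: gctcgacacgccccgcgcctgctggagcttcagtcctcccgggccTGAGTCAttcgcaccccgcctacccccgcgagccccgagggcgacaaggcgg
Fam180a: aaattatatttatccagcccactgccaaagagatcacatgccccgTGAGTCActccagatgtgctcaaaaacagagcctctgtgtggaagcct
The site begins 54, 104 and 48 bases before the start in Serpinb10, Il17rb and Fam180a. The ETS site CCGGAAGT was in 8.06% of the promoters of genes tested and in 1.02% and 1.41% of those at least 2-fold higher and lower.

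The induced gene itself was lower with UO126. Fos stood at 1163 and 1121 CPM with DMSO and 813 and 875 CPM with UO126 (-0.44 ± 0.080, adjusted p = 0.0015), and at 40.6 and 50.5 CPM in the empty-vector cells. Both UO126 libraries lay below both DMSO libraries and far above the empty vector. The count does not separate vector-derived from endogenous Fos. The genes of the drug's targets gave no call: Map2k1 (MEK1) was at -0.09 ± 0.072 (adjusted p = 0.40) and Map2k2 (MEK2) at -0.12 ± 0.082 (adjusted p = 0.32). UO126 acts on the MEK proteins, which mRNA counts do not measure.

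Genes used as a readout of MAPK pathway activity fell together. Of the 10 members of this list 9 were lower and 1 was higher, with a median log2 fold change of -1.24 beside 0 over all genes. Dusp6, a phosphatase that removes the activating phosphates of ERK, was at 55.8 and 62.2 CPM with DMSO and 14.5 and 15.5 CPM with UO126 (-1.98 ± 0.089, adjusted p = 1.9e-08). Ccnd1, cyclin D1, was at 643 and 687 CPM against 280 and 260 CPM (-1.30 ± 0.063, adjusted p = 2.4e-08). Etv4, a second ETS factor, was at 46.7 and 49.8 CPM against 15.5 and 15.1 CPM (-1.65 ± 0.095, adjusted p = 9.1e-08). None of the 3 had overlapping libraries.

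The rest of the list fell less or was rare. Epha2, a receptor of ephrins, was at 325 and 320 CPM against 176 and 186 CPM (-0.83), Dusp4, another ERK phosphatase, at 10.4 and 10.4 CPM against 4.4 and 4.89 CPM (-1.17), Phlda1 at -0.81 and the feedback inhibitor Spry2 at -0.81. Spry4 had 31 counts in both DMSO libraries together and 2 in the UO126 libraries together, a level 19 times as high with DMSO (95% exact interval 4.83 to 164, covering counting error only). Epha4, the exception, rose from 41.3 and 35.7 CPM to 68.4 and 61.4 CPM (0.75 ± 0.10, adjusted p = 1.5e-04).

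**Figure D2:**
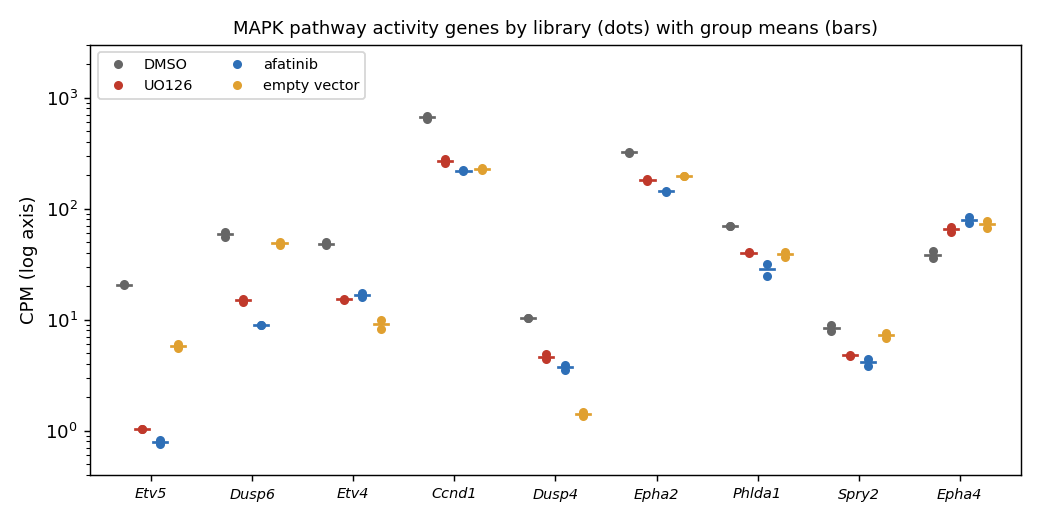
CPM on a log axis for 9 of the 10 MAPK activity genes (all but the rare Spry4) in each library of the 4 groups, with dots for libraries and bars for group means. The UO126 dots lie below the DMSO dots for 8 genes and above them for Epha4.

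Inhibitors of the pathway moved unevenly. Of 9 tested genes that act on receptors or RAS, 5 were lower and none higher (median -0.81). This list overlaps the MAPK list, with at least Spry4 in both, so its falls are not separate from those above. Spry1 fell to 3.44 and 4.2 CPM from 9.17 and 9.86 CPM (-1.32), Spred1 to 66.9 and 47.1 CPM from 125 and 134 CPM (-1.18), and Spred2 to 34.4 and 31.3 CPM from 61.7 and 57.2 CPM (-0.85). The dual-specificity phosphatases split, with 4 higher and 4 lower of 10 and a median of 0.04 that ranged from -0.34 to 0.05 when single libraries were left out (4 and 2 without DMSO replicate 2). Alongside the falls of Dusp6 and Dusp4, Dusp9 was at -1.16, a call that ended without DMSO replicate 2 (adjusted p = 0.056), while Dusp10, which acts mainly on the p38 and JNK kinases, rose from 34.8 and 32.4 CPM to 49.3 and 52.1 CPM (0.59).

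ETS factor genes, Etv4 and Etv5 included, gave 2 higher and 5 lower of 11 (1 higher without either DMSO replicate), with a median of -0.01 that ranged from -0.18 to 0.15 when single libraries were left out. Elk3 fell to 137 and 133 CPM from 186 in both DMSO libraries (-0.46), and Elf3, an epithelial ETS factor, rose to 9 and 9.16 CPM from 5.22 and 5.40 CPM (0.77). Of the 19 genes of the cascade from RAS to ERK, 2 were higher, 2 were lower and 15 gave no call (median -0.05). Both shares were below those of all genes tested (13.9% higher and 14.7% lower). Without either DMSO replicate 1 was higher and 1 lower, and without any single afatinib or empty-vector library 2 and 1. Rps6ka2, a kinase below ERK, was at 0.68 and the adaptor Shc1 at -0.38.

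The ligands of the EGFR family were lower as well. Of 9 ligands 6 fell and none rose (median -0.82). Areg, amphiregulin, was at 6.94 and 9.03 CPM with DMSO and 3.62 and 3.14 CPM with UO126 (-1.24 ± 0.20, adjusted p = 5.3e-04). Nrg1, neuregulin 1, was at 48.6 and 43.8 CPM against 20 and 21.2 CPM (-1.17 ± 0.096, adjusted p = 1.8e-06), and Tgfa at 52.3 and 54.5 CPM against 29.6 and 27.7 CPM (-0.90). Ereg, epiregulin, fell to 9.69 and 7.52 CPM from 16.1 and 15.4 CPM (-0.87). As in every called gene, no library of one group reached the other in these 4 genes.

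Among the EGFR family receptors, Erbb3, the partner of ERBB2 that binds neuregulins, rose from 43.8 and 41.8 CPM to 58.7 and 69.3 CPM (0.58 ± 0.10, adjusted p = 9.2e-04), and of 3 tested it was the only one called (2 were higher without DMSO replicate 1). Egfr, chosen after its values were seen, was at 81.6 and 68.0 CPM against 86.2 and 89.2 CPM (0.23, adjusted p = 0.092). Of 15 other receptor tyrosine kinases 7 were higher and 4 lower (4 and 4 without DMSO replicate 2), with Epha2 among those that fell and Fgfr2 rising from 193 and 180 CPM to 317 and 318 CPM (0.77).

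The AP-1 family divided between its members. Of 9 genes 3 were higher and 4 lower (3 lower when any single library was left out), with a median of -0.06 that ranged from -0.19 to 0.09 over those fits. Fosl1 (FRA-1), whose protein ERK stabilises, fell from 30.6 and 33.6 CPM to 14.9 and 13.7 CPM (-1.17 ± 0.094, adjusted p = 1.4e-06). Fosl2 (FRA-2) rose from 607 and 585 CPM to 974 and 1072 CPM (0.78 ± 0.066, adjusted p = 2.4e-06). The libraries of the groups did not overlap for either gene. Atf3 rose from 12.2 and 13.4 CPM to 25.3 and 22.8 CPM (0.91), and Fosb was at -0.91, a call that ended without UO126 replicate 2 (adjusted p = 0.067).

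Immediate-early genes, which ERK is known to induce, did not all fall. Of 10 tested, 4 were higher and 3 lower (median 0.08). The counts were 3 and 3 in the DESeq2 Wald test, with the replicate block and with the 4 libraries alone. Egr1, a zinc finger factor, was at 35.1 and 34.9 CPM with DMSO and 84.8 and 61.8 CPM with UO126 (1.07 ± 0.14, adjusted p = 7.1e-04). Its UO126 libraries differed from each other, but both lay above both DMSO libraries. Csrnp1 rose (0.61), while Maff fell from 21.7 and 20.6 CPM to 6.72 and 6.83 CPM and the nuclear receptor Nr4a1 was at -0.70. Of 11 Krüppel-like factors 4 were higher and 1 lower (median 0.17), with Klf9 rising from 39.5 and 38.3 CPM to 63.7 and 60.5 CPM. In the same 3 settings the counts of this list were 3 and 1, and the lower count also changed without either UO126 replicate.

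Genes that start DNA replication fell with UO126. Of 22 replication and G1/S genes 18 were lower and none higher (median -0.50). Tk1, thymidine kinase, was at 82.3 and 87.4 CPM with DMSO and 35.7 and 40.2 CPM with UO126 (-1.16 ± 0.078, adjusted p = 2.8e-07). Cdc6, which loads the replicative helicase, was at 44.5 and 40.9 CPM against 19.7 and 19.6 CPM (-1.12 ± 0.088, adjusted p = 1.1e-06). Cdt1 (-0.94) and Orc1 (-0.94), both needed to license origins, fell too. Of 20 mitosis genes 3 were higher, a share near that of all genes, and none lower (median 0.03), Cenpf at 0.40, Kif11 at 0.29 and Cenpe at 0.28, the last losing its call without DMSO replicate 2 (adjusted p = 0.11). Without UO126 replicate 1 the mitosis counts were 3 higher and 2 lower.

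Regulators of the G1 phase changed as well. Among cyclins and CDK inhibitors (2 higher and 5 lower of 11, and 1 and 3 without DMSO replicate 2), Ccnd2, cyclin D2, fell from 332 and 337 CPM to 152 and 156 CPM (-1.12 ± 0.060, adjusted p = 6.7e-08). Cdkn1a, the p21 inhibitor of cyclin-dependent kinases, rose from 35.4 and 32.8 CPM to 74.3 and 74.7 CPM (1.13 ± 0.071, adjusted p = 1.8e-07). Ccnd1, Ccnd2 and Cdkn1a each had both UO126 libraries on one side of both DMSO libraries.

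Ribosome assembly genes fell almost without exception. Of 26 members of the Myc and ribosome biogenesis list 25 were lower and none higher (median -0.49), and 20 were lower without DMSO replicate 2. Nop56, a core protein of the box C/D particles that guide rRNA methylation, was at 225 and 226 CPM with DMSO and 131 and 142 CPM with UO126 (-0.72 ± 0.063, adjusted p = 3e-06). Nolc1, a nucleolar chaperone, was at 347 and 370 CPM against 219 and 218 CPM (-0.71 ± 0.060, adjusted p = 2e-06). Dkc1, the pseudouridine synthase dyskerin, was at -0.82 and Rrs1 at -0.70, and Myc itself, chosen after its values were seen, was at 101 and 110 CPM against 82.1 and 86.6 CPM (-0.33, adjusted p = 0.0066). Rn45s differed between libraries of one group, and leaving it out gave 24 lower.

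**Figure D3:**
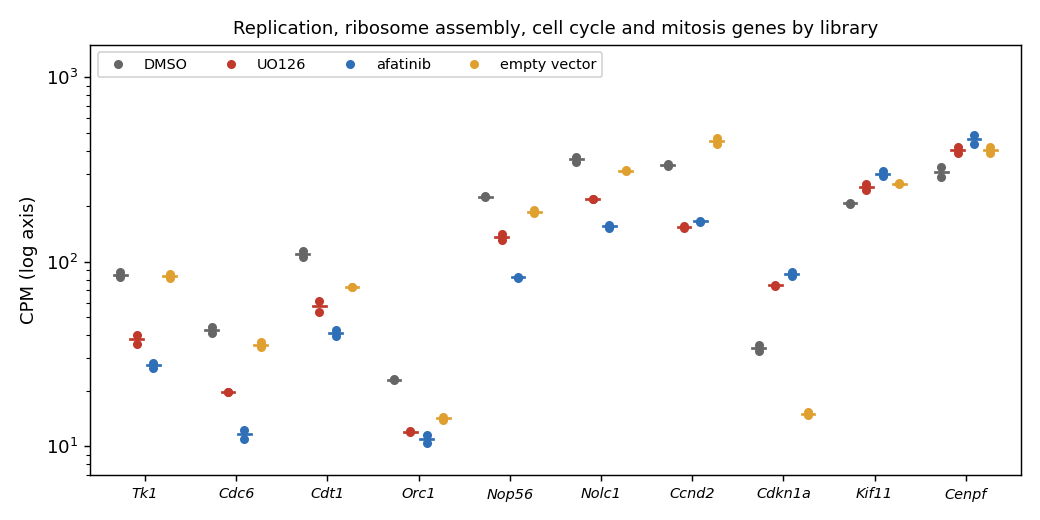
CPM on a log axis, by library (dots) with group means (bars), for 4 replication genes, 2 ribosome assembly genes, cyclin D2, p21 and 2 mitosis genes. UO126 lies below DMSO for the first 7 genes, from Tk1 to Ccnd2, and above it for Cdkn1a, Kif11 and Cenpf.

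Survival genes changed in both directions. Of 13 BCL2 family genes 3 were higher and 4 lower (median -0.10, and -0.04 without DMSO replicate 2). With the 4 libraries alone the counts were 3 and 3. Bcl2, which holds back apoptosis, fell from 27.3 and 26.0 CPM to 10.2 and 9.57 CPM (-1.43 ± 0.10, adjusted p = 5.7e-07). Bmf, a BH3-only protein that promotes it, rose from 0.544 and 0.994 CPM to 3.15 and 2.98 CPM (1.96 ± 0.33, adjusted p = 6.7e-04), and Bid fell from 71.8 and 74.0 CPM to 38.4 and 38.8 CPM (-0.92). The groups did not overlap in any of the 3. Of 13 p53 targets 6 were higher and 2 lower (median 0.18, and -0.02 without UO126 replicate 1 and 0.28 without UO126 replicate 2). The counts became 3 and 2 without DMSO replicate 1 and 3 and 1 without DMSO replicate 2. Of 17 FOXO and insulin signalling genes 7 were higher and 3 lower (4 and 3 without DMSO replicate 1, 3 and 2 without DMSO replicate 2), with Gadd45a at 0.94 and Ccng2 at 0.90.

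Targets of ATF4, the factor of the amino acid and ER stress response, were higher in the main. Of 16 genes 12 rose and none fell (median 0.52). Trib3, a pseudokinase, was at 15.6 and 16.2 CPM with DMSO and 54.1 and 56.5 CPM with UO126 (1.80 ± 0.080, adjusted p = 1.9e-08). Chac1, which breaks down glutathione, was at 29.7 and 29.2 CPM against 94.6 and 93.3 CPM (1.67 ± 0.074, adjusted p = 1.9e-08). Ddit4, an inhibitor of mTORC1, rose from 18.6 and 15.6 CPM to 50.9 and 52.4 CPM (1.59) and Sesn2 from 8.76 and 6.08 CPM to 16.9 and 18.5 CPM (1.25). The UO126 libraries were above both DMSO libraries in all 4.

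The C/EBP-ATF element TTGCATCA, to which ATF4 is known to bind, was in 3 of the 18 promoters found for 15 of these 16 genes (16.7%, against 0.625% of promoters of genes tested and 0.895% of all promoters). It lay in promoters of Chac1, Nupr1 and Vldlr. The same search, over 8 motifs, found the sterol response element TCACNCCAC in 0 of 20 promoters of the sterol and fatty acid list (1.14% of promoters of genes tested), and the xenobiotic response element TNGCGTG, the site of the aryl hydrocarbon receptor, in 0 of 5 promoters of that receptor's list (8.08%). The AP-1 and ETS sites were each in 0 of 6 promoters of the MAPK activity list. The E-box CACGTG, the site of Myc, was in 5 of 22 promoters of the Myc and ribosome biogenesis list (22.7%, against 9.95% of promoters of genes tested). The Chac1 stretch, at chr2:119351004-119351101 on the plus strand of GRCm38.p6, carries the C/EBP-ATF element 193 bases before the start, in capitals.
Chac1: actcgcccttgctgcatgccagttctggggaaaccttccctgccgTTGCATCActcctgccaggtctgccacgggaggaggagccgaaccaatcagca

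Of 16 NRF2 targets 9 were higher and none lower (median 0.26), with the heme-degrading enzyme Hmox1 rising from 24.7 and 25.3 CPM to 45.1 and 48.3 CPM (0.90) and the cystine transporter Slc7a11 from 30 and 31.9 CPM to 60.3 and 46.7 CPM (0.79). Of 10 ER chaperone genes 5 were higher and none lower (median 0.22), among them Herpud1 (0.97) and Hspa5 (0.32). Of 25 lysosome and autophagy genes 8 were higher and 1 lower, but 1 and 1 without DMSO replicate 2 and 5 and 1 without DMSO replicate 1 or UO126 replicate 2. Sqstm1, the autophagy receptor p62, rose from 317 and 304 CPM to 490 and 501 CPM (0.67).

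Genes of the synthesis of sterols and fatty acids rose by small amounts. Of 25 tested, 16 were higher and none lower (median 0.30, and 17 and 1 without UO126 replicate 2). Lss, lanosterol synthase, was at 133 and 131 CPM with DMSO and 220 and 221 CPM with UO126 (0.74 ± 0.059, adjusted p = 1.4e-06). Mvd, of the mevalonate pathway, was at 69.0 and 73.2 CPM against 116 in both UO126 libraries (0.71 ± 0.066, adjusted p = 5.7e-06). Insig1, a sensor of sterols, was at 0.59 and Fdft1 at 0.50. Hmgcs1 was at 0 counts in every library of this table, which does not show that it is absent. Of 7 tested genes of the aryl hydrocarbon receptor list 4 were higher and none lower (median 0.27), led by Cyp1b1, which rose from 138 and 134 CPM to 301 and 274 CPM (1.08 ± 0.070, adjusted p = 2.3e-07). The classical targets Cyp1a1 and Cyp1a2 had no counts.

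Genes of glucose uptake and glycolysis went both ways. Slc2a1, the glucose transporter GLUT1, was at 123 CPM in both DMSO libraries and 266 and 284 CPM with UO126 (1.16 ± 0.063, adjusted p = 6.7e-08). Eno1 fell from 167 and 169 CPM to 111 and 125 CPM (-0.51). Both genes stood in a list of 18 with 3 higher and 6 lower (2 and 3 without DMSO replicate 2), and Gapdh (-0.63) has many near copies, which leaves its level uncertain.

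**Figure D4:**
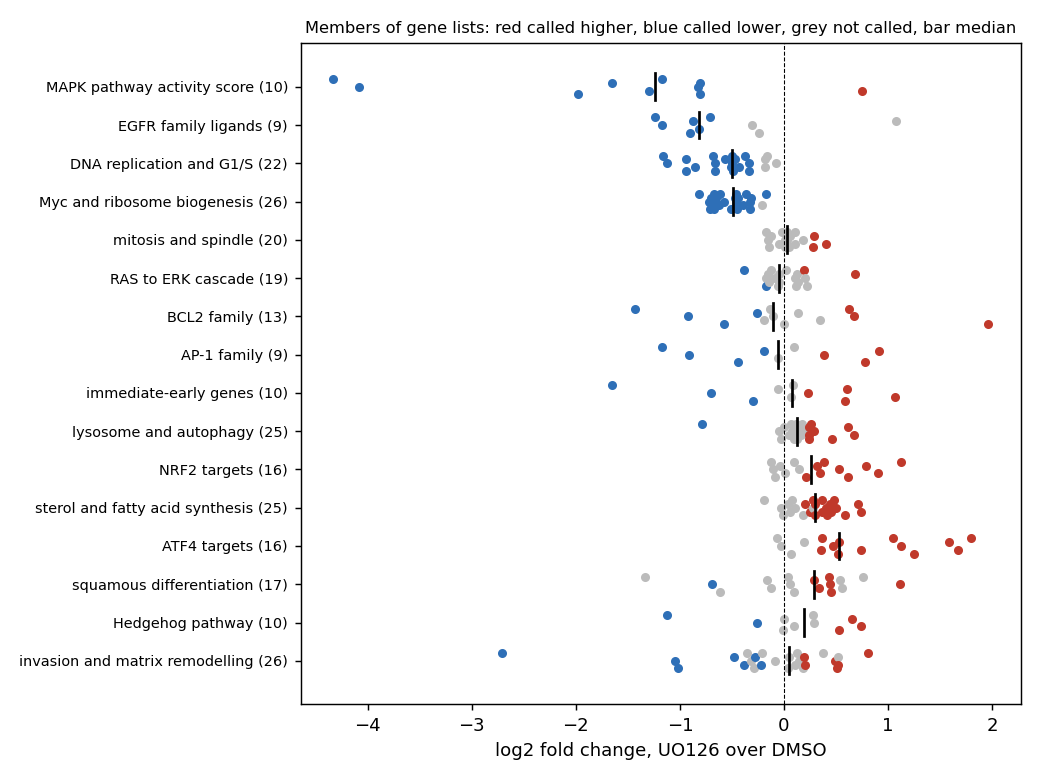
Log2 fold change of UO126 over DMSO for each tested member of 16 gene lists (number tested in brackets), in red where called higher, blue where called lower and grey where not called, with a bar at the list's median. The replication and ribosome biogenesis lists lie almost wholly left of 0, at medians of -0.50 and -0.49, and the ATF4 and sterol lists lie mostly right of it, at 0.52 and 0.30.

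Genes of squamous differentiation were more often higher than lower, with 6 and 1 of 17 tested (median 0.29). Without UO126 replicate 2 the counts were 6 and 2 and the median 0.13, and without UO126 replicate 1 or DMSO replicate 2 also 2 were lower. Krt16, a keratin of stressed and hyperproliferative epidermis, rose from 124 and 140 CPM to 270 and 303 CPM (1.12 ± 0.081, adjusted p = 6e-07), with no overlap of the groups. Evpl, envoplakin of the cornified envelope, fell from 280 and 274 CPM to 169 and 175 CPM (-0.69 ± 0.058, adjusted p = 2.3e-06). Sprr1a was at 0.45, and keratin and Sprr genes have near copies between which reads can be split. Krt14, a basal keratin, took more counts than any other called gene and was at 7499 and 7827 CPM against 9021 and 9461 CPM (0.27).

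Hedgehog pathway genes, whose activity drives basal cell carcinoma, gave 3 higher and 2 lower of 10, with a median of 0.19 that ranged from 0.07 without UO126 replicate 2 to 0.29 without UO126 replicate 1. The counts were 5 and 2 without UO126 replicate 1 and 3 and 1 without DMSO replicate 1. Ptch1, the receptor and a target, rose from 13.1 and 11.4 CPM to 20.3 and 20.8 CPM (0.74), the coreceptor Cdon from 81.4 and 73.7 CPM to 122 in both (0.65), and the factor and target Gli1 from 7.51 and 7.53 CPM to 10.2 and 11.4 CPM (0.53). The Ccnd2 of this list fell, as above.

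Invasion and matrix genes moved in both directions, 6 higher and 7 lower of 26 (median 0.05, and -0.01 without UO126 replicate 2). With the 4 libraries alone the counts were 4 and 6. Besides Hmga2, Serpinb2 was at 18.1 and 18.2 CPM with DMSO and 10.0 and 7.38 CPM with UO126 (-1.05), and Spp1, osteopontin, at 22.6 and 26.6 CPM against 12.5 and 11.7 CPM (-1.02). The protease Mmp10 rose from 13.6 and 14.2 CPM to 24.9 and 23.8 CPM (0.81), and Timp3, an inhibitor of such proteases, from 3742 and 3613 CPM to 5395 and 5058 CPM (0.51). Of 13 genes of the epithelial-mesenchymal transition 2 were higher and 5 lower (median -0.23, and -0.08 without DMSO replicate 1 or UO126 replicate 2). Vim, vimentin, fell from 80.6 and 78.9 CPM to 42.5 and 43.3 CPM (-0.89), and Esrp2, an epithelial splicing regulator, rose (0.47).

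Of 12 BMP and TGF-beta genes 2 were higher and 6 lower (median -0.29, and 1 higher without any of 7 single libraries, all but UO126 replicate 2), with Id1 falling from 51.9 and 64.7 CPM to 22.4 and 28.8 CPM (-1.19) and Tgfb1 from 38.8 and 42.8 CPM to 20.3 and 20.4 CPM (-1.01). Ctgf fell from 33.6 and 33.5 CPM to 16.2 and 16.5 CPM (-1.04) in a YAP/TEAD list of 4 higher and 4 lower of 14 (1 and 3 without DMSO replicate 2, 2 and 4 without DMSO replicate 1 or UO126 replicate 2). Actb, beta-actin, was at -0.30 among 3 higher and 3 lower of 15 SRF and actin genes (1 and 2 without DMSO replicate 2). Notch genes gave 4 higher and 1 lower of 10, Dll1 leading at 0.70, though the lower call was lost on leaving out any single library but UO126 replicate 2. Wnt feedback genes gave 2 and 2 of 8, Tcf7 among the lower, and 1 of these calls was lost on leaving out any single library but UO126 replicate 1.

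Type I interferon genes were higher where called, 4 of 16 with none lower (7, with a median of 0.62 in place of 0.41, without UO126 replicate 2), with Stat2 rising from 21.3 and 20.9 CPM to 35.1 and 39.0 CPM (0.81). Of 14 cytokine and VEGF genes 3 were higher and 3 lower (median -0.16, and -0.08 without empty-vector replicate 2). Ptgs2, cyclooxygenase 2, was at 183 and 191 CPM with DMSO and 561 and 395 CPM with UO126 (1.35 ± 0.16, adjusted p = 8.5e-04). The UO126 libraries of Ptgs2 were far apart, and both exceeded both DMSO libraries. Vegfa rose from 18.1 and 18.9 CPM to 29.5 and 30.2 CPM (0.69).

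UO126 was also set directly against afatinib, which acts on the receptors above MEK, at a different dose (10 against 5 µM). The contrast found 920 genes higher (7.14%) and 919 lower (7.14%) with UO126, 50 and 26 of them by at least 2-fold. Of the 10 MAPK activity genes 4 were higher with UO126 than with afatinib and none lower, and of the 9 ligands and 9 receptor-level inhibitors none was called. Dusp6 was at 14.5 and 15.5 CPM with UO126 and 8.91 and 8.89 CPM with afatinib (0.75 ± 0.10, adjusted p = 4.6e-04). Etv5 was at 1.03 and 1.04 CPM against 0.755 and 0.825 CPM (0.34 ± 0.26, adjusted p = 0.52), which does not show that the drugs act alike. The comparisons with DMSO share the DMSO libraries, so their values are only set side by side.

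Among the genes that set the drugs apart, those of sterol synthesis and Cyp1b1 were higher with UO126. Mvd was at 116 in both UO126 libraries, 46.2 and 44.1 CPM with afatinib and 69.0 and 73.2 CPM with DMSO (UO126 against afatinib 1.36 ± 0.067, adjusted p = 1.3e-07). Lss was at 220 and 221 CPM against 110 and 105 CPM (1.04), and 20 of 25 sterol and fatty acid genes were higher and none lower. Cyp1b1 was at 301 and 274 CPM against 98.6 and 107 CPM (1.48 ± 0.070, adjusted p = 1.3e-07), and at 393 and 369 CPM in the empty-vector cells. Of the 7 tested genes of the aryl hydrocarbon receptor list 3 were higher than with afatinib, 1 was lower and 3 gave no call, Arnt (-0.04) among these. In Mvd, Lss and Cyp1b1 the DMSO libraries lay between those of the inhibitors. Genes named for the largest differences between inhibitors were picked for libraries that did not overlap, so such separation adds nothing to their calls. Thbs1, thrombospondin 1, was at 2712 and 2674 CPM with UO126, 989 and 1071 CPM with afatinib and 3253 and 2907 CPM with DMSO (UO126 against afatinib 1.39 ± 0.072). Rgs16 was at 3.64 and 3.55 CPM against 0.657 and 0.642 CPM (2.44 ± 0.22, adjusted p = 1.5e-05).

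ATF4 targets were higher with afatinib than with UO126. Of 16 genes 10 were lower with UO126 and 1 was higher, Ddit4 (0.42). Trib3 was at 54.1 and 56.5 CPM with UO126, 118 and 109 CPM with afatinib and 15.6 and 16.2 CPM with DMSO (UO126 against afatinib -1.04 ± 0.069, adjusted p = 1.3e-06). Chac1 was at -0.88 ± 0.067 and Slc2a1 at -0.99 ± 0.061. The UO126 libraries lay between those of DMSO and afatinib in all 3. Lysosome genes gave 10 lower and none higher of 25, with Gpnmb at -1.20 and Sqstm1 at -0.44. Ribosome biogenesis and replication genes, lower than DMSO with UO126, were higher than with afatinib in 20 of 26 and 10 of 22 members, with none lower. Nop56 was at 131 and 142 CPM with UO126 and 82.0 and 83.1 CPM with afatinib (0.73 ± 0.064, adjusted p = 1.1e-05). Leaving out afatinib replicate 2 lowered the counts to 307 higher and 391 lower genes.

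**Figure D5:**
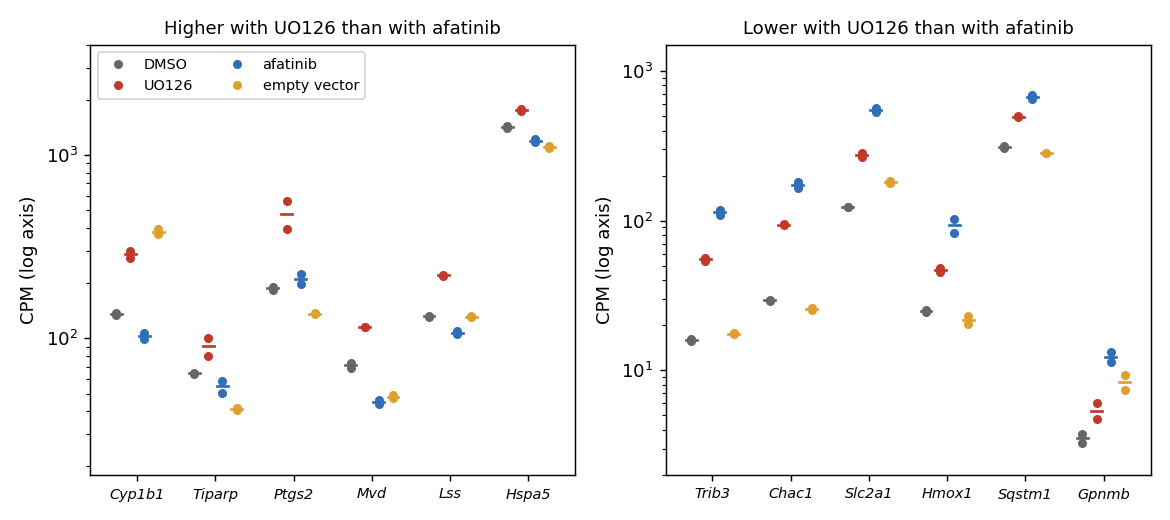
CPM on a log axis, by library (dots) with group means (bars), for 6 genes higher with UO126 than with afatinib (left) and 6 lower (right). For Cyp1b1, Mvd and Lss UO126 is above DMSO and afatinib below it, and for Trib3, Chac1 and Slc2a1 UO126 lies between DMSO and afatinib.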

How the data were processed

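RNA from 8 libraries was measured with a TruSeq RNA kit, a protocol without strand information, so overlapping genes cannot be told apart. The authors deposited expected counts per gene, made with TopHat and HOMER per the series design text; DESeq2 and build mm9 are further entries of the submitters' processing notes. All values were multiples of 0.5, and 47.9% to 49.5% of values above 0 in a library ended in 0.5. They were rounded to whole numbers. Entries with date-like symbols (26, 0.218% to 0.246% of counts) were dropped. In R 4.3.3 with edgeR 4.0.16, genes passed a filter on expression (minimum count 10, minimum total 15), libraries were scaled by TMM, and a robust quasi-likelihood model with 4 groups of 2 (4 residual degrees of freedom) was fitted, with Benjamini-Hochberg adjustment over 12879 genes; SE is the log2 fold change divided by the root of F. CPM uses the TMM-scaled sizes. The code was tested on simulated data. Alternatives used DESeq2 1.42.0, other filters and fewer libraries. Genes named were Fos, Map2k1 and Map2k2, the 15 largest called changes each way among genes whose higher group averaged 5 CPM or more and whose libraries did not overlap (predicted and unnamed transcripts left out), the MAPK list, up to 4 called members of each list, the 6 called genes with the most counts and the 6 largest differences each way between inhibitors by the same rule, apart from those said to be chosen after their values were seen; marker genes and promoter matches are also named. The members and lists were chosen with earlier results of these data known. Depths set the precision: total counts were 17901974 to 23126048.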

Additional observations from a re-analysis of the deposited data

How the results depend on the processing

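Without DMSO replicate 2, UO126 against DMSO gave 913 higher and 968 lower genes, and 50.3% of the called genes stayed called; over the libraries left out in turn the counts ran from 913 to 2051 higher and from 968 to 2063 lower, and from 307 to 1102 and from 391 to 1316 for UO126 against afatinib, where afatinib replicate 1 left out gave 403 and 432. With an adjusted p under 0.01 there were 1001 and 1144 genes (408 and 378 against afatinib), and with only the 4 libraries compared 505 and 481 against afatinib. All other settings kept these counts within 1.5 times. The replicate numbers did not pair the samples, the correlation of same-numbered deviations being -0.09 for DMSO and UO126 and -0.21 for UO126 and afatinib; with a replicate block the counts were 1580 and 1652 (711 and 706 against afatinib), and with the UO126 numbers exchanged, chosen after seeing the data, 996 and 1032 against afatinib. Map2k2 was at 0 without UO126 replicate 1 and Abca1 at 0.1 without DMSO replicate 2, neither called, from -0.12 and -0.23 (Map2k2 was at -0.22 without UO126 replicate 2, a call, and Abca1 at -0.49 without DMSO replicate 1); the cause was not tested. Genes under about 1 CPM rest on few counts.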
